A study of Mus musculus with 11 samples.

Results

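Described here are 10 genes of glucose breakdown, glycogen breakdown and lactate export: Slc2a1, Hk2, Pygl, Pfkl, Aldoa, Gapdh, Pgk1, Pkm, Ldha and Slc16a3. The set was chosen by the function of its genes and by levels across the 4 genotypes in an earlier reading of the same libraries, so its values describe these libraries. The genes were taken by symbol from a deposited table of 14739 genes, and each matched 1 row. All 10 passed the filter on low values, with at least 138 reads behind every value. RNA was sequenced in bulk from Tmem119+ microglia of the cerebrum, obtained by cell sorting from aged mice on the C57BL/6 background, and 11 libraries formed 4 groups. Csf1r_het is the genotype Csf1r+/-, with 3 libraries from mice of 20, 24 and 21 months (replicates 1, 2 and 3). Csf2het is Csf2+/-, with 3 libraries at 21 months. Dhet carries both deletions (Csf1r+/-; Csf2+/-), with 2 libraries at 21 and 24 months (replicates 1 and 2). WT is wild type, with 3 libraries at 21 months. The series examined single and double heterozygosity of Csf1r, the receptor of CSF-1 and IL-34, and of Csf2, which encodes the cytokine CSF-2. The labels give whole-animal genotypes and name no Cre driver or pooling of animals.

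Glycolysis splits glucose into pyruvate in the cytosol, and lactate dehydrogenase turns pyruvate into lactate so that the pathway can run on without mitochondria. Glycogen is the cell's branched glucose store, from which phosphorylase releases glucose phosphate that enters glycolysis below the hexokinase step. Macrophages, the family to which microglia belong, shift toward glycolysis when activated and export lactate through monocarboxylate transporters in the plasma membrane. Many of these genes are classical targets of hypoxia-inducible factor, which binds the core motifs ACGTG and GCGTG.

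To show how these core motifs lie near the start of these genes, the 250 bases before the transcription start were read from RefSeq promoters (GRCm38.p6), where all 10 symbols matched, with 14 windows in all. The windows printed are those of the glycogen phosphorylase Pygl and the lactate exporter Slc16a3, whose levels changed with genotype, and those of Ldha (1 of its 2 windows) and Pgk1, whose levels did not pass the test. Each window is written 5′ to 3′ on the gene's strand, with ACGTG and GCGTG in capitals, or CACGT and CACGC where the motif lies on the opposite strand. The Pygl window is chr12:70227684-70227933 on the minus strand, the Slc16a3 window chr11:120948817-120949066 on the plus strand, the Ldha window chr7:46845554-46845803 on the plus strand and the Pgk1 window chrX:106186850-106187099 on the plus strand. The Pygl, Slc16a3 and Ldha windows lie inside the gene spans of the deposited table, which reach further upstream than the RefSeq start used.
Pygl: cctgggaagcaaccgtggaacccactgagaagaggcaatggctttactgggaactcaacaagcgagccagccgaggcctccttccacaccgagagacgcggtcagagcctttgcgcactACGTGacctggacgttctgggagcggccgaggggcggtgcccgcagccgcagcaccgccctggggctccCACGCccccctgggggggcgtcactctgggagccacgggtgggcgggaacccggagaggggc
Slc16a3: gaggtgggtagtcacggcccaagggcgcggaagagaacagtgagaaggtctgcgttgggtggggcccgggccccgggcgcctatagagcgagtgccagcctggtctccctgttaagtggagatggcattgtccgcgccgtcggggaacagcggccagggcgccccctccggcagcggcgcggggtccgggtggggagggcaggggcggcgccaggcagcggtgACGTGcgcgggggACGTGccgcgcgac
Ldha: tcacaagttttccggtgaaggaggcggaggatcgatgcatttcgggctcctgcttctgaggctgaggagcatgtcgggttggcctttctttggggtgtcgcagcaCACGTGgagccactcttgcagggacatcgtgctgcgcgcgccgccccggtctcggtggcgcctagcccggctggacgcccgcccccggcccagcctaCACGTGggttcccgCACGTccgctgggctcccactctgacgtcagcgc
Pgk1: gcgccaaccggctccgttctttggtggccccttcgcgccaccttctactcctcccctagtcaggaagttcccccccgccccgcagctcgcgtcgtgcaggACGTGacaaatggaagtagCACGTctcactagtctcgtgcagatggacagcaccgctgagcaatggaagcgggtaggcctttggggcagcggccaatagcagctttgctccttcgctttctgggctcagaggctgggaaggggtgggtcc
ACGTG, searched on both strands, was in 9 of the 14 windows, against 16.6% of all 32851 windows in the table. By gene it was in 8 of the 10, for which no share over all genes is given. Overlapping windows of Aldoa hold the same ACGTG site, which is counted in each. GCGTG, searched the same way, was in 5 of 14 windows, against 28.2% of all windows. At least 1 of these motifs was in 12 of 14 windows, against 38.6% of all windows. In Ldha the palindrome CACGTG, which holds ACGTG on both strands, occurred 2 times. Pygl had 1 match to each motif, and Slc16a3 and Pgk1 each had 2 to ACGTG alone. These matches describe letters in a window, and no binding was measured.

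Library depth ran from 21037819 to 53081638 reads, and values are given as normalized counts, which are gene counts that the authors divided by 1 size factor per library. Haemoglobin genes took 16.1% to 58.8% of a library's counts. Csf1r lay at 17017 to 40567 normalized counts in the 5 libraries with 1 Csf1r copy deleted, below the 41261 to 93319 of the other 6. Tmem119, the gene of the sort marker, was present in every library, and its lowest value was 5432 in WT replicate 2, against 15711 to 31939 in the others. Ddx3y was at 717 and Xist at 4.02 in Dhet replicate 2, whereas the other libraries had at most 16.3 and at least 3011. The 2 Dhet libraries thus differ in these sex-linked transcripts as well as in age (21 and 24 months). The part of either difference in the Dhet values was not tested. WT replicate 2 also stood apart among the 10 genes described: Hk2 was 7.42 times the mean of the other 2 WT libraries, Pgk1 was 1.39 times it, and Slc2a1, Pfkl, Aldoa, Gapdh, Pkm, Ldha and Slc16a3 lay at 0.386 to 0.619 of it. Pygl did not share this, at 0.968 of that mean. All 11 microglia markers were present in every library, with sums of 276958 to 326439.8 in Csf1r_het, 421031 to 570651 in Csf2het, 368441 to 447459.8 in Dhet and 105835 to 294277 in WT libraries. Markers of monocytes, neutrophils, erythroid cells and choroid plexus were present too. The labels do not say whether libraries of a group came from separate mice, so p-values measure the spread between these libraries.

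Of the 10 genes, Pygl and Slc16a3 fell in both single heterozygotes against WT, and neither passed the test in Dhet. Changes are log2 fold changes of normalized count + 1 from 1 limma fit over 13223 genes, and a gene is called at a Benjamini-Hochberg adjusted p under 0.05 over all of them. In Csf1r_het against WT 2 of 10 genes were called, both lower, and 1.32% of all genes tested were called in that comparison, 0.885% as lower. In Csf2het against WT 2 of 10 were called, both lower, beside 3.65% of all genes (2.84% as lower), and DESeq2 called Pkm lower as well. In Dhet against WT limma called 0 of 10, edgeR and DESeq2 on the recovered reads also 0, and 1 had an unadjusted p under 0.05. The background there was 0.529%. Dhet against Csf1r_het gave 0 calls with limma and edgeR and 1 with DESeq2 (Pygl), with 3 unadjusted p under 0.05 and a background of 0.00756%. In Dhet against Csf2het 1 of 10 was called, Pygl, which was higher, beside 0.0227% of all genes, each of them higher. The interaction, which is the change of Dhet over Csf1r_het minus that of Csf2het over WT, gave 2 calls of 10, both higher, beside 1.85% of all genes (1.2% as higher), and DESeq2 also called Pgk1, which was lower. The 3 comparisons with WT share its libraries, so they are not independent of each other. The genes were chosen with earlier results of these libraries known, and the p-values describe this fit without adding independent support.

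The medians of the 10 log2 fold changes were -0.58 in Csf1r_het, -0.61 in Csf2het and -0.41 in Dhet against WT, where the medians over all genes tested were -0.12, -0.02 and 0.02. Against the single heterozygotes the 10 genes had medians of 0.35 (Dhet against Csf1r_het) and 0.45 (Dhet against Csf2het), beside 0.10 and 0.03 over all genes. With libraries centred on their median, the medians in Csf1r_het against WT were -0.45 for the 10 genes and 0.01 for all genes, and in Dhet against Csf1r_het they were 0.19 and -0.06. In 6 genes, Slc2a1, Pygl, Pfkl, Pkm, Ldha and Slc16a3, the means of both single heterozygotes lay below those of Dhet and WT, an order that 25.5% of all genes tested share. The opposite order held in Aldoa and Pgk1, beside 19.3% of all genes. Only in Pygl, among the 10, did all 6 single-heterozygote libraries lie below all 5 others, which 2.22% of all genes tested do.

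In Csf1r_het against WT the libraries of the 2 groups did not overlap in 3 of 10 genes, beside 21.4% of all genes tested. Pgk1 lay above, as 8.61% of all genes did, and Pygl and Slc16a3 lay below, as 12.8% did. In Csf2het against WT Pygl, Pkm and Slc16a3 lay below (3 of 10), beside 25.2% of all genes not overlapping and 14.3% below. In Dhet against WT Pygl and Slc16a3 lay below (2 of 10), beside 26.1% and 12.6%. Dhet did not overlap Csf1r_het in 6 of 10 genes, beside 33.0% of all genes, with Slc2a1, Pygl, Pfkl and Slc16a3 above (18.5% of all genes) and Hk2 and Pgk1 below (14.4%). Dhet did not overlap Csf2het in 6 of 10 genes either, beside 29.6%, with Pygl, Pfkl, Pkm and Ldha above (16.7%) and Hk2 and Pgk1 below (12.9%).

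**Figure D1:**
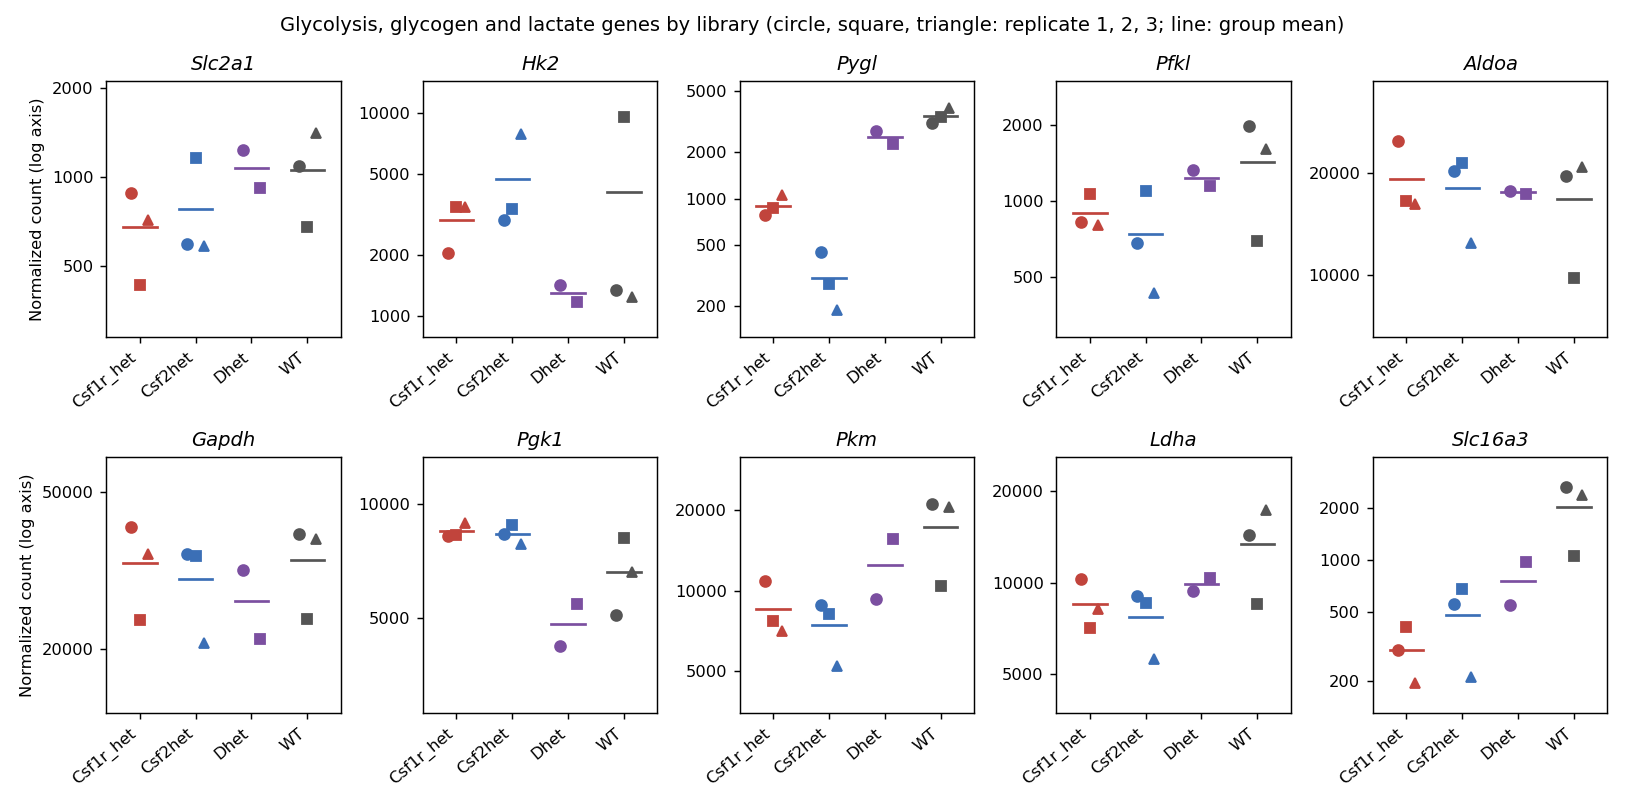
Normalized count (log axis) of each of the 10 genes in the 11 libraries, by genotype group, with circles, squares and triangles for replicates 1, 2 and 3 and a line at each group mean. Pygl separates all 4 groups, Slc16a3 is highest in the 3 WT libraries, and WT replicate 2 (grey square) lies far above the other WT libraries for Hk2 and below them for Pfkl, Aldoa, Pkm, Ldha and Slc16a3.

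**Figure D2:**
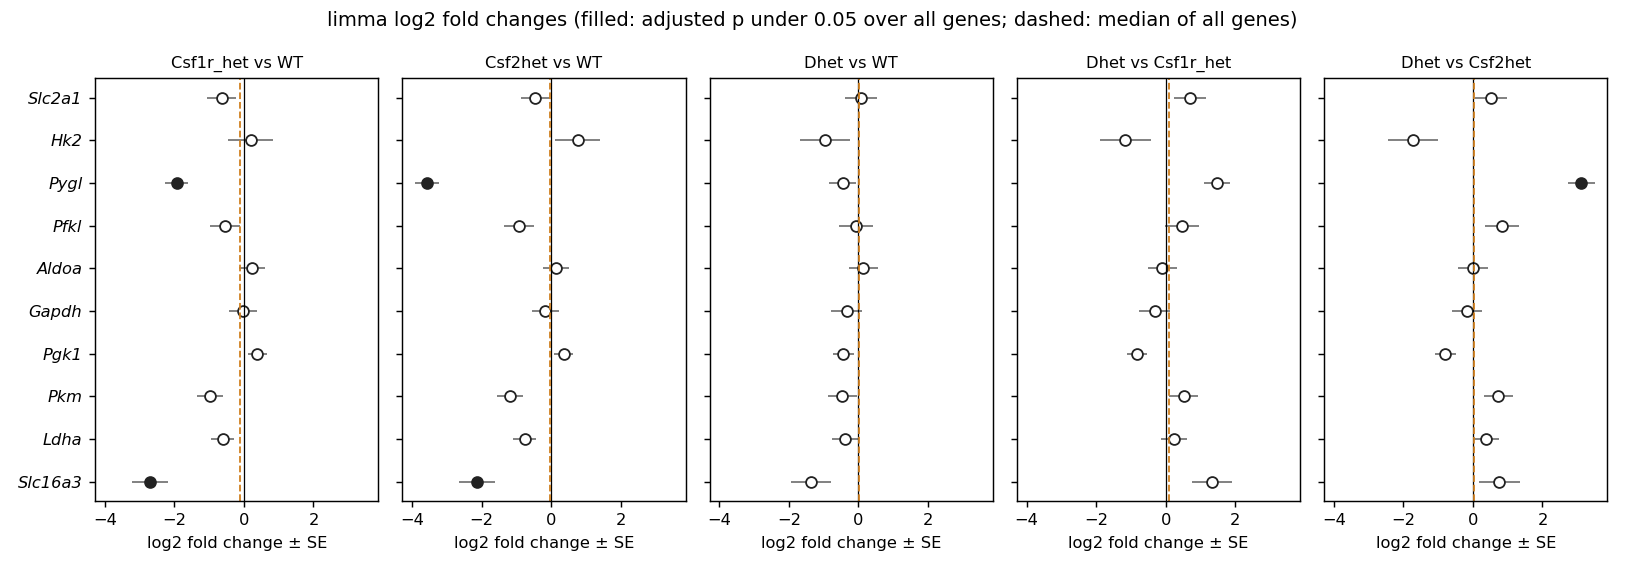
limma log2 fold change with its SE for each gene in 5 comparisons, the first-named group over the second. Filled points have an adjusted p under 0.05 over all 13223 genes, and the dashed line is the median of all genes. The filled points are Pygl and Slc16a3 in both single heterozygotes against WT and Pygl in Dhet against Csf2het.

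Pygl encodes the liver-type glycogen phosphorylase, which releases glucose phosphate from glycogen and is also found in leukocytes. The gene (ENSMUSG00000021069.17, chr12:70190811-70231488, minus strand) had normalized counts of 784, 867 and 1051 in Csf1r_het, 449, 279 and 188 in Csf2het, 2760.3 and 2262 in Dhet and 3080.5, 3362 and 3867 in WT libraries. The Csf2het libraries were the lowest of all, the Csf1r_het libraries came next, both Dhet libraries lay above every single heterozygote, and the WT libraries were highest. No 2 groups overlapped. Among all genes tested 30 (0.227%) kept the 4 groups in separate ranges, and Pygl was 1 of them. Group means were 901 ± 136 in Csf1r_het, 305 ± 132 in Csf2het, 2511 ± 352 in Dhet and 3436 ± 399 in WT (SD, n = 3, 3, 2 and 3).

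Pygl fell in Csf2het against WT, with a log2 fold change of -3.57 (SE 0.34, adjusted p = 0.000278), 11.9 times lower and rank 4 of all genes tested by limma p. In Csf1r_het against WT it fell as well, with -1.94 (SE 0.34, adjusted p = 0.0233). For Dhet against WT the change was -0.45 (SE 0.38, adjusted p = 0.704), although the groups did not overlap. Dhet was higher than Csf2het by 3.12 (SE 0.38, adjusted p = 0.0114), 8.69-fold, and Pygl was 1 of 3 genes called in that comparison, among them the transcription factor Nfe2 (log2 fold change 2.43). Dhet against Csf1r_het gave 1.48 (SE 0.38, adjusted p = 0.382). The 2 single changes sum to -5.51 on the log2 scale, while the measured change in Dhet was -0.45. The interaction was 5.05 (SE 0.51, adjusted p = 0.00136) in limma. Leaving out any 1 Csf1r_het library or WT replicate 1 ended the Csf1r_het call, with changes of -2.05 to -1.84 over the 11 such fits and adjusted p up to 0.110. Leaving out Csf2het replicate 2 or 3 or Dhet replicate 1 ended the call of Dhet against Csf2het, with changes of 2.82 to 3.44 and adjusted p up to 0.173.

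The profile of Pygl over the 11 libraries was close to those of Nfe2, Pstpip1, Stx11 and Slc9a3r1, with Pearson correlations of 0.984, 0.979, 0.956 and 0.949, which are among the highest of 11013 genes with a mean of at least 50. This list was made after the values of Pygl were seen, the libraries share their group structure, and no p is given. Once group means were taken out, the correlations were 0.74, 0.73, 0.09 and 0.35.

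Between groups, the summed marker genes of monocytes kept the order of Pygl. Their sum (9 of 9 found) was 52055 to 63093 in Csf1r_het, 12887 to 21125 in Csf2het, 65678 to 72707 in Dhet and 75669 to 173321 in WT libraries, which puts the 4 groups in separate ranges. The single markers did not all share the step from Csf1r_het to Dhet. In that comparison 4 of 9 changes lay above 0 and 5 below, with a median of -0.03. Chil3 had means of 11531 in Csf1r_het and 32744 in Dhet, while Ccr2 had 3929 and 3330. Vcan, 1 of the 9, was at 0 in some Csf2het and Dhet libraries. limma called all 9 lower in Csf2het against WT, beside 2.84% of all genes. In Csf1r_het against WT all 9 changes lay below 0, and 1 was called, beside 0.885% called as lower. In the interaction 5 of the 9 were called, all higher, beside 1.2% of all genes, and all 9 changes lay above 0. The summed neutrophil markers (11 of 11, none at 0) were 28236 to 449411 in Csf1r_het, 115869.5 to 198254 in Csf2het, 676735 to 741521 in Dhet and 50685 to 797783 in WT libraries. limma and edgeR called 0 of these 11 in any comparison, while 7 had an unadjusted p under 0.05 in Dhet against Csf1r_het and 7 in Dhet against Csf2het, and DESeq2 called 2 in Csf2het against WT, 2 in Dhet against Csf2het and 3 in the interaction. Within WT, Pygl was 3080.5, 3362 and 3867 where the neutrophil sums were 50685, 250664 and 797783. The monocyte sums of the same WT libraries were 103861, 173321 and 75669. Microglia markers lay the other way, with all 11 changes above 0 in Csf1r_het, Csf2het and Dhet against WT. limma called 3 of these 11 in Csf2het, all higher, beside 3.65% of all genes called, and 0 in Csf1r_het and in Dhet. In bulk RNA fewer cells of a type and less RNA per cell cannot be told apart, and the part of these cells in the Pygl result was not tested.

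**Figure D3:**
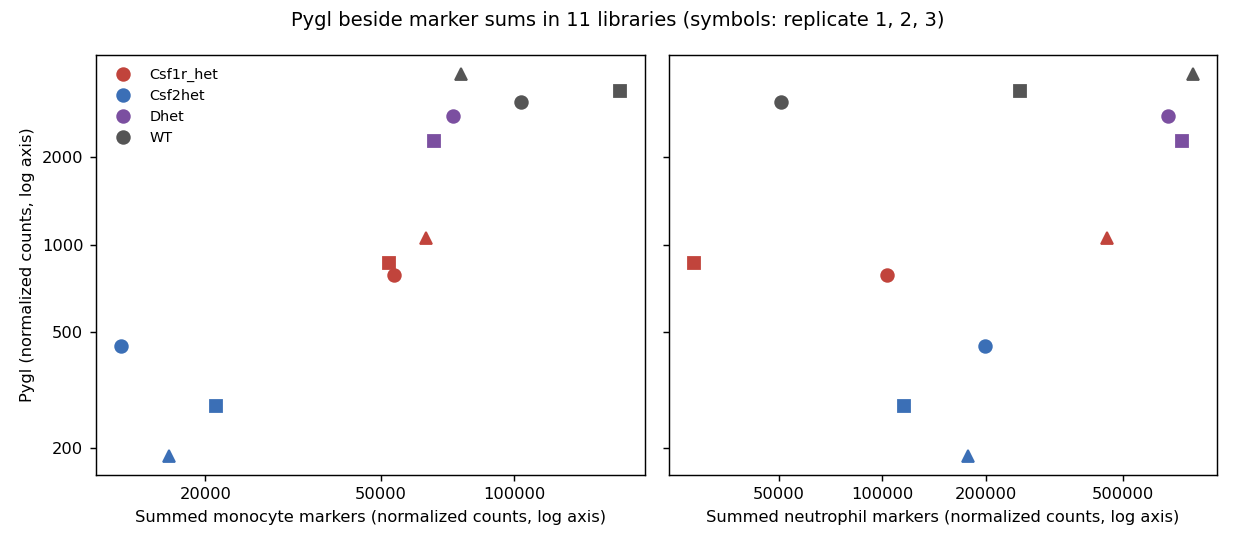
Pygl against the summed markers of monocytes (left) and neutrophils (right), in normalized counts on log axes, with 1 point per library and symbols for replicates 1, 2 and 3. The 3 Csf2het libraries have the lowest Pygl and the lowest monocyte sums (12887 to 21125). The WT libraries differ little in Pygl, with monocyte sums from 75669 to 173321 and neutrophil sums from 50685 to 797783.

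Of the 3 phosphorylase genes, Pygl took most of the phosphorylase signal in Dhet and WT. Counted per kb of transcript (the median length of its protein-coding transcripts in GENCODE vM21) within each library, its share of Pygl, Pygb (the brain type) and Pygm (the muscle type) was 49.0, 39.9 and 60.7% in Csf1r_het, 25.4, 22.9 and 34.9% in Csf2het, 90.4 and 68.2% in Dhet and 70.5, 90.3 and 80.1% in WT libraries. Both Dhet libraries lay above every single heterozygote, the Dhet and WT ranges overlapped, and Csf2het was below Csf1r_het in every library. Mean shares of Pygb were 19.9% in Csf1r_het, 45.7% in Csf2het, 10.3% in Dhet and 11.9% in WT. The shares were computed after the levels had been seen and carry no test.

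Other genes of glycogen turnover were read as a list of 20, of which 18 were tested (Phka1 and Epm2a were not found). In Csf1r_het and in Csf2het against WT 1 of 18 was called, the same gene Gyg, and it was lower. Over all genes 1.32% were called in Csf1r_het and 3.65% in Csf2het, and 1 call is no result about the list. Gyg encodes glycogenin, the protein primer on which a glycogen particle starts, and had normalized counts of 1158, 757 and 1036 in Csf1r_het, 589, 524 and 815 in Csf2het, 1407 and 1092 in Dhet and 3798, 3715 and 2055 in WT libraries. All 8 heterozygous libraries lay below all 3 WT libraries, an order whose share over all genes is not given here. Its log2 fold changes were -1.66 (SE 0.34, adjusted p = 0.0370) in Csf1r_het, -2.28 (SE 0.34, adjusted p = 0.00272) in Csf2het and -1.31 (SE 0.38, adjusted p = 0.223) in Dhet against WT, with an interaction of 2.64 (SE 0.51, adjusted p = 0.0241) in limma. The Csf1r_het call was lost without any 1 Csf1r_het or Csf2het library, Dhet replicate 1 or WT replicate 1 (-1.95 to -1.49 over the 11 fits, adjusted p up to 0.184), and also with edgeR. The Csf2het call held in all 11 (-2.57 to -2.13). The interaction was lost without Csf1r_het replicate 3, Csf2het replicate 1 or 2, Dhet replicate 1 or WT replicate 1 (2.45 to 2.93, adjusted p up to 0.111). No other gene of the list was called by limma in any comparison, and the list medians of -0.21, -0.09 and -0.31 in Csf1r_het, Csf2het and Dhet against WT compare with -0.12, -0.02 and 0.02 over all genes. In Dhet against WT limma and edgeR called 0 of 18 and DESeq2 1, and 2 had an unadjusted p under 0.05.

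Glucose enters through Slc2a1 (GLUT1), the basal glucose transporter (ENSMUSG00000028645.11, chr4:119108711-119137983, plus strand). Normalized counts were 886, 429.7 and 717 in Csf1r_het, 594, 1159.7 and 582 in Csf2het, 1230.0 and 917 in Dhet and 1091, 679 and 1408 in WT libraries. The 4 groups overlapped except that both Dhet libraries were above all Csf1r_het libraries. The log2 fold changes were -0.64 (SE 0.41, adjusted p = 0.473) in Csf1r_het, -0.46 (SE 0.41, adjusted p = 0.635) in Csf2het and 0.07 (SE 0.46, adjusted p = 0.973) in Dhet against WT in limma.

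Among 26 tested genes of a list of 27 further glycolysis and lactate genes (Pdk4 was not found), limma called 1 in each single heterozygote against WT and 0 in Dhet against WT, where edgeR and DESeq2 also called 0 and 5 had an unadjusted p under 0.05. Over all genes 1.32% were called in Csf1r_het and 3.65% in Csf2het, so 1 of 26 is near the background in Csf2het. The called gene was the hexose transporter Slc2a6 (GLUT6), which in macrophages sits on lysosomal membranes. It had normalized counts of 647, 242 and 300.1 in Csf1r_het, 485, 447 and 154 in Csf2het, 1005 and 573 in Dhet and 2863, 1323 and 2132 in WT libraries. Here too all 8 heterozygous libraries lay below all 3 WT libraries, an order whose share over all genes is not given. Slc2a6 fell in both single heterozygotes against WT, with log2 fold changes of -2.47 (SE 0.53, adjusted p = 0.0423) in Csf1r_het and -2.63 (SE 0.53, adjusted p = 0.0163) in Csf2het, and Dhet gave -1.40 (SE 0.59, adjusted p = 0.465). Its interaction was 3.71 (SE 0.79, adjusted p = 0.0333) in limma. The Csf1r_het call held only without Csf2het replicate 3 or WT replicate 2 among the 11 fits without 1 library (-2.89 to -2.18, adjusted p up to 0.206), and edgeR did not make it. The Csf2het call was lost without Csf2het replicate 3 or WT replicate 1 (-2.93 to -2.10, adjusted p up to 0.0953). The interaction held only without Csf1r_het replicate 1, Dhet replicate 2 or WT replicate 2 (3.18 to 4.13, adjusted p up to 0.160). Over the list the medians were -0.23, -0.18 and 0.01 in Csf1r_het, Csf2het and Dhet against WT, close to the -0.12, -0.02 and 0.02 over all genes. The lowest p in Dhet against WT belonged to Slc16a1, a lactate transporter, at 1.69 (SE 0.57, adjusted p = 0.335), and to Hk1, the constitutive hexokinase, at -1.21.

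Hk2, the inducible hexokinase that traps glucose in the cell and the hexokinase enriched in microglia of the mouse brain, had another order of groups. The gene (ENSMUSG00000000628.10, chr6:82725025-82774454, minus strand) had normalized counts of 2057, 3441 and 3442 in Csf1r_het, 2981, 3360.2 and 7894 in Csf2het, 1422 and 1178 in Dhet and 1349, 9615 and 1243 in WT libraries. Both Dhet libraries lay below all 6 single-heterozygote libraries, and the WT values were far apart, with replicate 2 at 9615 and the other 2 at 1349 and 1243. The log2 fold changes were 0.20 (SE 0.65, adjusted p = 0.910) in Csf1r_het, 0.76 (SE 0.65, adjusted p = 0.610) in Csf2het and -0.96 (SE 0.73, adjusted p = 0.672) in Dhet against WT. Dhet against Csf2het gave -1.73 (SE 0.73, adjusted p = 0.570) and Dhet against Csf1r_het -1.16 (SE 0.73, adjusted p = 0.529). Without WT replicate 2 limma called Hk2 higher in Csf2het against WT (1.73, adjusted p = 0.0332) and lower in the interaction (-2.89, adjusted p = 0.0126), and gave 1.16, adjusted p = 0.127 in Csf1r_het. Per kb of transcript, Hk2 was 57.4% to 67.6% of the Hk1, Hk2 and Hk3 sum in Csf1r_het, 63.0% to 83.7% in Csf2het, 27.9% to 34.1% in Dhet and 26.4% to 82.1% in WT libraries. Hk3, a hexokinase of leukocytes, held 18.6% to 36.8% in Csf1r_het, 13.4% to 25.5% in Csf2het, 56.4% to 57.5% in Dhet and 9.66% to 52.8% in WT libraries. The Dhet libraries, low in Hk2, had higher neutrophil sums (given beside Pygl) than all single heterozygotes. Within WT, Hk2 was 1349, 9615 and 1243 where the neutrophil sums were 50685, 250664 and 797783. The part of neutrophils in the Hk2 values was not tested.

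limma called none of the enzymes from Pfkl to Pkm in any comparison of the full fit. DESeq2 called Pkm lower in Csf2het against WT and Pgk1 lower in the interaction. Pfkl, the liver-type subunit of phosphofructokinase at the committed step (ENSMUSG00000020277.10, chr10:77986947-78010083, minus strand), had normalized counts of 825, 1064 and 805 in Csf1r_het, 686, 1101 and 435 in Csf2het, 1324 and 1153 in Dhet and 1988, 693 and 1604 in WT libraries. Both Dhet libraries were above all single heterozygotes, and WT overlapped every group. Its changes were -0.55 (SE 0.43, adjusted p = 0.556) in Csf1r_het, -0.92 (SE 0.43, adjusted p = 0.302) in Csf2het and -0.08 (SE 0.48, adjusted p = 0.970) in Dhet against WT in limma.

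Aldoa, the aldolase that splits the hexose into triose phosphates (ENSMUSG00000030695.15, chr7:126795234-126808905, minus strand), had normalized counts of 24908, 16533 and 16169 in Csf1r_het, 20285, 21361 and 12426 in Csf2het, 17759 and 17383 in Dhet and 19601, 9824 and 20830.1 in WT libraries. No comparison separated the groups, the lowest library was WT replicate 2 and the highest Csf1r_het replicate 1. Its log2 fold changes were 0.24 (SE 0.38, adjusted p = 0.791) in Csf1r_het, 0.14 (SE 0.38, adjusted p = 0.900) in Csf2het and 0.15 (SE 0.42, adjusted p = 0.933) in Dhet against WT, and without WT replicate 2 they were -0.10, -0.21 and -0.20. Gapdh, which couples oxidation of the triose to its phosphorylation and often serves as a reference transcript (ENSMUSG00000057666.18, chr6:125161715-125166467, minus strand), had 40814, 23752 and 34733 in Csf1r_het, 34846, 34449 and 20708 in Csf2het, 31681 and 21207 in Dhet and 39036, 23828 and 37980.3 in WT libraries. All groups overlapped, and the log2 fold changes were -0.02 (SE 0.39, adjusted p = 0.986) in Csf1r_het, -0.17 (SE 0.39, adjusted p = 0.886) in Csf2het and -0.34 (SE 0.44, adjusted p = 0.824) in Dhet against WT. The sign of the Csf1r_het value turned with edgeR (0.05), DESeq2 (0.07) and libraries centred on their median (0.11), and that of Csf2het turned without Csf2het replicate 3 (0.08). Aldoa, Gapdh, Pkm and Ldha together made up 69.1% to 86.9% of the summed counts of the 10 genes.

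Pgk1, the first enzyme of glycolysis to yield ATP, is X-linked (ENSMUSG00000062070.12, chrX:106187100-106203699, plus strand) and had normalized counts of 8246, 8317 and 8914 in Csf1r_het, 8361, 8839.6 and 7874 in Csf2het, 4215 and 5459 in Dhet and 5097, 8153 and 6622 in WT libraries. The 6 single-heterozygote libraries lay in a narrow band above both Dhet libraries. WT replicates 1 and 3 were below that band, and WT replicate 2 was inside it. Dhet against Csf1r_het gave -0.82 (SE 0.30, adjusted p = 0.437) and against Csf2het -0.80 (SE 0.30, adjusted p = 0.499) in limma. The interaction was -1.18 (SE 0.40, adjusted p = 0.145), and without WT replicate 2 it was called (-1.35, adjusted p = 0.0316).

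Pkm, the pyruvate kinase of the last ATP-yielding step (ENSMUSG00000032294.17, chr9:59656368-59679375, plus strand), had normalized counts of 10843, 7686 and 7059 in Csf1r_het, 8844, 8192 and 5244 in Csf2het, 9269 and 15549 in Dhet and 21039.8, 10419.9 and 20524 in WT libraries. The 6 single-heterozygote values ran from 5244 to 10843, WT replicates 1 and 3 were highest, and the Dhet values overlapped those of Csf1r_het and WT and lay above Csf2het. The changes were -0.98 (SE 0.37, adjusted p = 0.223) in Csf1r_het, -1.19 (SE 0.37, adjusted p = 0.104) in Csf2het and -0.46 (SE 0.41, adjusted p = 0.729) in Dhet against WT in limma. Without WT replicate 2 Pkm was called lower in Csf1r_het (-1.31, adjusted p = 0.0467) and in Csf2het (-1.52, adjusted p = 0.0217), and the interaction was 2.04, adjusted p = 0.0214. The table gives 1 value per gene, so the PKM1 and PKM2 splice forms were not separated.

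Lactate formation rests on Ldha, the subunit of lactate dehydrogenase that favours pyruvate to lactate (ENSMUSG00000063229.15, chr7:46841475-46855627, plus strand). Its normalized counts were 10294, 7092 and 8186 in Csf1r_het, 9032, 8543 and 5597 in Csf2het, 9401 and 10352 in Dhet and 14368, 8513 and 17260.3 in WT libraries. WT replicates 1 and 3 were the highest 2 libraries, WT replicate 2 lay within the range of the heterozygotes, and the level changes of -0.61, -0.76 and -0.38 in Csf1r_het, Csf2het and Dhet against WT did not pass the test (adjusted p = 0.388, 0.255 and 0.754 in limma). Ldhb, the heart-type subunit that favours lactate to pyruvate, had 24524, 15862 and 18462 in Csf1r_het, 19275, 19197 and 16566 in Csf2het, 10421 and 15557 in Dhet and 8845, 4393 and 10725 in WT libraries. Its changes against WT, 1.37 (SE 0.37, adjusted p = 0.0907), 1.29 (SE 0.37, adjusted p = 0.0740) and 0.77 (SE 0.41, adjusted p = 0.552) in the same order, did not pass either.

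As a share within each library, the 2 subunits separated WT from every heterozygote. Per kb of transcript, the share of Ldha in Ldha plus Ldhb was 25.6, 26.9 and 26.7% in Csf1r_het, 27.8, 26.8 and 21.7% in Csf2het, 42.6 and 35.3% in Dhet and 57.2, 61.4 and 56.9% in WT libraries. The 3 WT libraries lay above all 8 heterozygous ones, and both Dhet libraries lay above all 6 single heterozygotes. Group means were 26.4 ± 0.663% in Csf1r_het, 25.4 ± 3.25% in Csf2het, 38.9 ± 5.10% in Dhet and 58.5 ± 2.53% in WT (SD, n = 3, 3, 2 and 3). WT replicate 2, which stood apart in the levels of both genes, had a share of 61.4%, close to the 57.2% and 56.9% of the other WT libraries. A share does not say which of the 2 genes differed, and it was computed after the values were seen, with no test. The separation was not particular to these subunits. Pfkm held 8.28% to 9.64% of the phosphofructokinases in WT and 16.2% to 37.2% in heterozygous libraries. Among the glucose transporters, Slc2a5 and Slc2a6 shares also separated WT from all 8. Shares of the aldolases and hexokinases overlapped, and no share over all genes is given. The summed choroid plexus markers (10 of 10, none at 0) were 909896 to 1611174 in Csf1r_het, 940890.2 to 1223736 in Csf2het, 288997 to 649918 in Dhet and 443609 to 700505 in WT libraries. The Dhet and WT sums overlapped. The part of these or of other cells in the Ldha share was not tested.

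**Figure D4:**
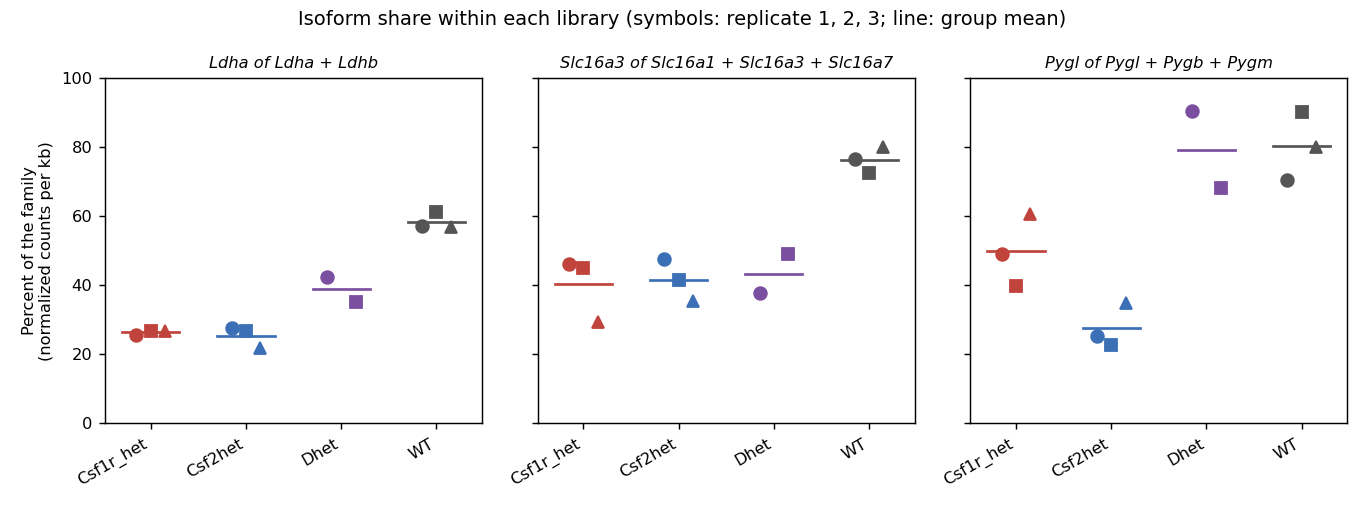
Share of Ldha in the lactate dehydrogenases, of Slc16a3 in the lactate transporters and of Pygl in the glycogen phosphorylases, in percent of normalized counts per kb within each library, with circles, squares and triangles for replicates 1, 2 and 3 and lines at group means. WT libraries lie above all 8 heterozygous libraries for Ldha and Slc16a3, whereas for Pygl the Dhet libraries reach the WT range.

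Slc16a3 encodes MCT4, the low-affinity transporter through which glycolytic cells export lactate (ENSMUSG00000025161.16, chr11:120948480-120960868, plus strand). Normalized counts were 301, 412 and 196 in Csf1r_het, 558, 678 and 209.8 in Csf2het, 549 and 972 in Dhet and 2643, 1054 and 2382 in WT libraries. All 8 heterozygous libraries lay below all 3 WT libraries, with the nearest pair at 972 (Dhet replicate 2) and 1054 (WT replicate 2). The share of all genes with this order is not given here. Taken group by group, 12.8% of all genes lay below WT in Csf1r_het, 14.3% in Csf2het and 12.6% in Dhet. Group means were 303 ± 108 in Csf1r_het, 482 ± 243 in Csf2het, 761 ± 299 in Dhet and 2026 ± 852 in WT (SD, n = 3, 3, 2 and 3).

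Slc16a3 fell in both single heterozygotes against WT, with log2 fold changes of -2.69 (SE 0.52, adjusted p = 0.0325) in Csf1r_het and -2.13 (SE 0.52, adjusted p = 0.0426) in Csf2het, 6.47 and 4.36 times lower. Dhet against WT gave -1.36 (SE 0.58, adjusted p = 0.468), Dhet against Csf1r_het 1.33 (SE 0.58, adjusted p = 0.465) and Dhet against Csf2het 0.76 (SE 0.58, adjusted p = 0.782). The single changes sum to -4.82, against a measured -1.36 in Dhet, and the interaction was 3.46 (SE 0.78, adjusted p = 0.0427) in limma. These calls lie near the threshold. Over the 11 fits without 1 library the Csf1r_het change ran from -3.11 to -2.41, and its call was lost without any 1 Csf1r_het library, Csf2het replicate 1 or 2 or WT replicate 1 or 3 (adjusted p up to 0.166). The Csf2het change ran from -2.54 to -1.61, and its call was lost without Csf1r_het replicate 1, any 1 Csf2het or Dhet library or WT replicate 1 or 3 (adjusted p up to 0.180). The interaction ran from 2.94 to 3.87 and held only without Csf1r_het replicate 2 or WT replicate 2 (adjusted p up to 0.124).

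Among the lactate transporters Slc16a1 (MCT1), Slc16a3 and Slc16a7 (MCT2), the share of Slc16a3 per kb of transcript was 46.2, 45.1 and 29.5% in Csf1r_het, 47.6, 41.5 and 35.4% in Csf2het, 37.8 and 49.1% in Dhet and 76.6, 72.5 and 80.0% in WT libraries. The 3 WT libraries lay above all 8 heterozygous ones, and the heterozygous groups overlapped with means of 40.3%, 41.5% and 43.5% in Csf1r_het, Csf2het and Dhet, against 76.4% in WT. Slc16a1 held 18.7% to 40.1% in Csf1r_het, 25.6% to 35.2% in Csf2het, 32.7% to 39.4% in Dhet and 6.44% to 9.29% in WT libraries. These shares too were computed after the levels had been seen and carry no test. The counts of Slc16a3 enter its share, so the share is no separate result from their fall.

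The genes whose profile over the 11 libraries was most like that of Slc16a3 were Cdc42se2, Nfam1, Osbpl9, Eri1 and Rab10, with Pearson correlations of 0.971, 0.956, 0.956, 0.948 and 0.944. With group means taken out they were 0.955, 0.796, 0.875, 0.924 and 0.794. Monocyte sums, given beside Pygl, were likewise highest in WT. The summed immediate early and dissociation genes (16 of 17 found, Fosb was not) were 14002 to 15770.0 in Csf1r_het, 11768 to 21297 in Csf2het, 13740.1 to 41278 in Dhet and 29904 to 57523 in WT libraries, so all heterozygous libraries except Dhet replicate 1 lay below WT. limma called 2 of 16 lower in Csf1r_het, 4 in Csf2het and 1 in Dhet against WT, beside 0.885% and 2.84% of all genes called lower in Csf1r_het and Csf2het and 0.529% called in Dhet. Egr2, Hspa1a and Hspa1b were at 0 in some Csf1r_het libraries, and the part of either list in the Slc16a3 result was not tested.

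Of 20 genes around hypoxia-inducible factor, 19 were tested (Adm was not found). In Csf1r_het against WT limma and edgeR called 0 of 19 and DESeq2 3, and 5 had an unadjusted p under 0.05, the lowest at Ero1l, an oxidase of the endoplasmic reticulum, and Ddit4, an inhibitor of mTORC1: -1.22 (SE 0.33, adjusted p = 0.0932) and -3.27 (SE 0.90, adjusted p = 0.101). Ndrg1, a stress-induced target of the factor, fell in Csf2het against WT, with -3.69 (SE 0.65, adjusted p = 0.00818). It was the 1 gene of the 19 called there, beside 3.65% of all genes, and 1 call is no result about the list. The normalized counts of Ndrg1 were 277, 65.2 and 220.0 in Csf1r_het, 63.6, 22.0 and 34.1 in Csf2het, 391 and 304 in Dhet and 471, 528 and 445 in WT libraries. The Csf2het libraries lay below all others, an order whose share over all genes is not given. In the interaction Ndrg1 and Ero1l were called, at 4.80 (SE 0.98, adjusted p = 0.0275) and 2.17 (SE 0.49, adjusted p = 0.0427), beside 1.85% of all genes. The Csf2het call of Ndrg1 held in all 11 fits without 1 library (-4.08 to -3.34). Its interaction was lost without Csf1r_het replicate 3, Csf2het replicate 2 or 3, either Dhet library or WT replicate 1 or 3 (4.17 to 5.20, adjusted p up to 0.120), and that of Ero1l held only without Csf1r_het replicate 2 or WT replicate 2 (2.08 to 2.27, adjusted p up to 0.144). In Dhet against WT limma, edgeR and DESeq2 called 0 of 19, and 3 had an unadjusted p under 0.05. The lowest p there belonged to Bnip3, a mitophagy gene, at 1.72 (SE 0.50, adjusted p = 0.223), and to Car9, a carbonic anhydrase, at -2.36 (SE 0.94, adjusted p = 0.437). Bnip3 lay the other way from the genes that fell, with normalized counts of 1484, 2375 and 1212 in Csf1r_het, 1797, 1768 and 1121 in Csf2het, 1628 and 2286 in Dhet and 832, 279.5 and 861 in WT libraries, and all 8 heterozygous libraries lay above all 3 WT libraries. The share of all genes with that order is not given here. The list medians were -0.52, -0.21 and -0.47 in Csf1r_het, Csf2het and Dhet against WT, and Hif1a itself gave -0.71, -0.40 and -0.26, with adjusted p = 0.338, 0.623 and 0.856 in limma.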

How the data were processed

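The deposited table holds normalized counts, a signal in which the authors divided the counts of each gene by 1 size factor per library, per the file headers. kallisto 0.43.1, mm10 and DESeq2 are named in the submitters' processing notes. The filter on genes, the DESeq2 version and any use of strand are not given in the sources used here. Divided by the smallest step of its library, 100% of the values fell within 0.02 reads of a whole number, which gave back the reads and the library depths. Gene IDs were matched to GENCODE vM21, where 14723 of 14739 were found.

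limma 3.58.1 (R 4.3.3, trended prior) was fitted to log2(normalized count + 1) of the 13223 genes with a mean of at least 10, with 1516 left out, in 1 fit over the 4 groups (7 residual and 5.90 prior degrees of freedom). The script was tested on simulated data. A fold change on this scale understates the change of low genes. edgeR 4.0.16 and DESeq2 1.42.0 on the recovered reads were alternatives, with other pseudocounts, filters, scalings and samples. Promoter windows are from RefSeq.

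The 10 genes and all lists were chosen with earlier results of these data known. From the lists, called genes are named, or else the 2 with the lowest p, and a few genes that this rule names are not reported here. Likeness is the Pearson correlation of log2 values. Aldoa, Gapdh, Pgk1, Pkm and Ldha have near-identical pseudogenes elsewhere in the genome, and how the counting split such reads is uncertain.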

Additional observations from a re-analysis of the deposited data

Results flagged for a closer look

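In 6 genes the change that went with the loss of 1 Csf2 copy differed between mice with 1 and with 2 copies of Csf1r, by the interaction test of limma over all genes. Written as the log2 change of Dhet over Csf1r_het minus that of Csf2het over WT, the difference was 5.05 for the glycogen phosphorylase Pygl and 2.64 for glycogenin (Gyg). It was 3.46 for the lactate exporter Slc16a3 and 3.71 for the hexose transporter Slc2a6. For the stress-induced gene Ndrg1 it was 4.80, and for the oxidase Ero1l it was 2.17. The value of Pygl passed the threshold in all 11 fits without 1 library, and the other 5 lost it in at least 5 of them. The 6 calls were 2 of the 10 genes described, 1 of 26 further glycolysis and lactate genes and 1 of 18 other glycogen genes. The remaining 2 were among 19 genes around hypoxia-inducible factor. Over all genes 1.85% were called, 1.2% as higher. In the same test limma called 5 of 9 monocyte markers higher and 0 of 11 neutrophil markers, and every change in both sets lay above 0. The part of such cells in the 6 interactions was not tested.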

How the results depend on the processing

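Of 1834 values recomputed under the alternatives for the 10 genes, Gyg, Slc2a6, Ndrg1 and Ero1l, 1707 stayed on their side of the threshold and, where not called, within the replicate spread of the reported value. Another 109 lost the threshold and 15 gained it. The sign changed in 38 values, none of them called and each at most 0.24 in size as reported. With only the groups compared in the fit, calls among the 10 genes were 0 in Csf1r_het and 1 in Csf2het against WT. Without the mice of 24 months they were 0 in Csf1r_het against WT and 1 in the interaction. DESeq2 called 1 in Dhet against Csf1r_het, 3 in Csf2het against WT and 3 in the interaction. Over the fits without 1 library, these calls ran from 0 to 3 in Csf1r_het, 1 to 4 in Csf2het and 0 to 0 in Dhet against WT, 0 to 0 in Dhet against Csf1r_het, 0 to 1 in Dhet against Csf2het and 1 to 5 in the interaction, and the Csf1r_het median from -0.92 to -0.39. Deviations from group means correlated at -0.21 to 0.06 between same-numbered libraries and at -0.20 to 0.31 between differently numbered libraries of different groups. Deviations within a group of 2 or 3 libraries are tied to each other, so these values cannot exclude a shared batch. The labels do not say what the replicate numbers stand for. With a replicate block, the calls were 0 in Csf1r_het and 1 in Csf2het against WT, 0 in Dhet against Csf2het and 1 in the interaction, and the adjusted p of Pygl in Csf1r_het was 0.0769. Over all genes, limma called 174, 482 and 70 in Csf1r_het, Csf2het and Dhet against WT, 1 in Dhet against Csf1r_het, 3 in Dhet against Csf2het and 244 in the interaction. In the same order DESeq2 called 825, 1232, 357, 115, 183 and 986, edgeR 100, 458, 26, 2, 3 and 201, and limma with the block 28, 256, 48, 0, 0 and 14. Without length correction the share of Slc16a3 averaged 32.8%, 33.0% and 32.9% in Csf1r_het, Csf2het and Dhet and 71.2% in WT libraries. These length choices were added after seeing the data. At least 138 reads lie behind every value of the 10 genes, and each group holds 2 or 3 libraries.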
